A study of Mus musculus with 15 samples.

Results

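Card14, Rrad, Map3k6 and Sphk1 are 4 genes picked from 14272 named genes for a strong rise with prednisone, so their differences from vehicle are given here as a description without a test. They were found by their symbols in a table of gene values measured by RNA sequencing in the quadriceps of male mice of the DBA/2J-mdx strain, and all 4 passed the filter on low values that 14059 genes passed. Prednisone is a synthetic glucocorticoid given to patients with Duchenne muscular dystrophy, and the comparison asks how muscle transcripts respond to 1 weekly dose or to daily doses of it. Each of the 3 groups holds 5 libraries. The vehicle group had intraperitoneal DMSO, the solvent, 7 times a week. The weekly group had 1 mg/kg prednisone by the same route 1 time a week and vehicle on the other 6 occasions, and the daily group had 1 mg/kg prednisone 7 times a week. Every group carries the mdx mutation of dystrophin on the DBA/2J background, in which the dystrophy is more severe than on the original mdx background, and no non-dystrophic group was analysed. The age was 6 months in one label and about 7 months in another, and neither the length of treatment nor the interval from the last dose to tissue collection was stated. Nothing in the labels ties each library to an animal of its own, so a p-value covers only how far these samples scatter, which can be technical.

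Glucocorticoids bind the glucocorticoid receptor, which enters the nucleus and raises or lowers the transcription of target genes. The 4 genes act in different signalling routes. Card14 encodes a scaffold that assembles BCL10 and MALT1 and so activates the transcription factor NF-kappaB, and it is best known from keratinocytes of the skin. Map3k6, also called ASK2, is a kinase that works with its relative ASK1 (Map3k5) at the head of the stress kinase cascades leading to JNK and p38. Sphk1 makes sphingosine 1-phosphate, a lipid messenger that acts through cell surface receptors and in muscle on the satellite cells, which are the stem cells of the fibre. Rrad is a small GTPase of the RGK family that binds the beta subunits of voltage-gated calcium channels and lowers their current, and it was first described in skeletal muscle of people with diabetes.

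In the GENCODE M21 annotation of GRCm38, Card14 lies on the plus strand at chr11:119307768-119345375, and 955 of its 4605 exon bases overlap Sgsh on the minus strand. Rrad lies on the minus strand at chr8:104628070-104631327 and shares 141 of 1577 exon bases with the antisense gene Gm33023. Map3k6, on the plus strand at chr4:133240818-133252929, has 4604 exon bases and overlaps no other gene. Sphk1, on the plus strand at chr11:116530925-116536674, shares 192 of 4774 exon bases with the antisense gene Gm29292. Sphk1 and Card14 sit on the same chromosome, 2.77 Mb apart. No source used here states if the authors counted reads by strand, so reads in these overlaps cannot be assigned with certainty, and Gm33023 and Gm29292 were not analysed here.

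Promoter sequence is shown because all 4 genes were picked for a rise with the same drug. RefSeq windows for GRCm38.p6, from 250 bases before to 50 bases after a start site, were matched for 2 of the 4 genes, with 1 window for Map3k6 and 5 for Sphk1, whose later windows belong to alternative start sites inside the gene. Of the Sphk1 windows, the most upstream one and the first of the later ones are printed. Capitals mark a match to a searched motif, on either strand.
Map3k6 window at chr4:133240568-133240867, plus strand: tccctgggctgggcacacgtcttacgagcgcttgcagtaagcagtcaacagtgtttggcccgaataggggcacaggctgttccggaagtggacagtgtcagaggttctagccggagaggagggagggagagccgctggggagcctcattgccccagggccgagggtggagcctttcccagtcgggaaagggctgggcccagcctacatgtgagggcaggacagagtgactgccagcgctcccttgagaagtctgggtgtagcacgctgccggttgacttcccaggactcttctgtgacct
Sphk1 window at chr11:116530850-116531149, plus strand: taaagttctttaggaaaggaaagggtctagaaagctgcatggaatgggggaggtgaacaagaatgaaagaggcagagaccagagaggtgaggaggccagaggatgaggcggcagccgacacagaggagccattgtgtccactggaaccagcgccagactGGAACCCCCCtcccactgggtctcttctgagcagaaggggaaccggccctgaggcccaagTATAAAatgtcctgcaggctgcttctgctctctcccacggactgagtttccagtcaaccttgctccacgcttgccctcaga
Sphk1 window at chr11:116531587-116531886, plus strand: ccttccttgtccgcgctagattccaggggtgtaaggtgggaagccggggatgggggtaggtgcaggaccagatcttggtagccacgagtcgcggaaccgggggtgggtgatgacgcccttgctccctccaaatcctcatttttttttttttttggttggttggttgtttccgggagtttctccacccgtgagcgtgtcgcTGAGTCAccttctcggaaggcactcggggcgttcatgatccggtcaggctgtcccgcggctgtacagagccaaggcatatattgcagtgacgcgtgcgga
The palindromic glucocorticoid response element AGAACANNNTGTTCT, in which N is any base, was in 0.00913% of all 32851 mouse windows. Its half-site AGAACA, which lies inside the full element, was in 19.0%. The cyclic AMP response element TGACGTCA was in 1.79% and an AP-1 site, TGANTCA, in 7.81%. The E-box, CACGTG, was in 7.15% and the NF-kappaB site in 8.46%. A TATA box, spelled TATAAA, was in 13.6%. The Map3k6 window held none of these 7 motifs. The most upstream Sphk1 window held an NF-kappaB match starting 91 bases before the start site and a TATA box starting 31 bases before it. The second printed window held an AP-1 match starting 50 bases before its own start site. Of the 3 Sphk1 windows not printed, 1 overlaps the second and held the same AP-1 match and an NF-kappaB match starting 41 bases after the start site, and the other 2 overlap each other and held 1 E-box, starting 95 or 102 bases before the start site. These are matches of letters, not measured binding, and a missing match says only that the letters are not in these windows.

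Values are CPM, the reads of a gene divided by all reads of its library and multiplied by a constant. Depth ran from 2780768 to 11052552 reads, so 3 reads, taken as the level below which a single value says little, stood for 0.271 to 1.08 CPM. Of the 10 skeletal muscle markers, such as Acta1 and Ckm, all 10 were measured, and they summed to 235529 to 240684 CPM in vehicle, 195299 to 269264 in weekly and 138308 to 219908 in daily libraries. Every daily library thus lay below every vehicle library in this sum, a separation that 8.82% of all single genes tested also had. Taken singly, 0 of the 10 markers differed from vehicle at a limma adjusted p under 0.05 in either regimen. The part of this sum in the results was not tested. The libraries of the 3 groups were not equally alike, with a biological coefficient of variation of 3.55% among vehicle, 29.4% among weekly and 9.40% among daily libraries. The mitochondrial ribosomal RNA mt-Rnr2 took 12.6% to 13.4% of the reads in vehicle libraries, 8.05% to 14.4% in daily libraries, 6.22% to 9.41% in weekly 1, 2, 3 and 5 and 0.567% in weekly 4, and its part in the results was not tested either. A pair of libraries stood apart. Weekly 4 was the shallowest and had the highest sums of 6 fibroblast markers (24754 CPM, where weekly libraries otherwise had 2132 to 3129, vehicle libraries 1920 to 2142 and daily libraries 1973 to 3549) and of 10 macrophage markers (1786 CPM, where they had 192 to 486, 437 to 475 and 274 to 552). In daily 3, the predicted gene Gm26924 took 20.5% of the reads and Lars2 7.79%, and its scaling factor by the trimmed mean of M values (TMM), which sets libraries to a common level over most genes, was 0.653. Results that rest on these libraries are given with and without them or with TMM scaling.

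Card14 was the gene with the largest difference of the 4 from vehicle. Vehicle libraries 1 to 5 held 2.92, 1.99, 2.98, 2.54 and 3.84 CPM, which rest on 17 to 34 reads each. Weekly libraries 1 to 5 held 38.2, 36.4, 71.6, 146 and 58.4 CPM, from 286 to 711 reads. Daily libraries 1 to 5 held 39.9, 55.8, 23.1, 41.2 and 51.4 CPM, from 149 to 411 reads. No prednisone library overlapped the vehicle libraries: the lowest weekly library lay 9.46-fold and the lowest daily library 6.01-fold above the highest vehicle library. The group means were 2.86 ± 0.678 CPM in vehicle, 70.1 ± 44.9 in weekly and 42.3 ± 12.7 in daily libraries (SD, n = 5 each). On the log2(CPM + 0.5) scale, which understates the change of genes with low values, Card14 stood 4.22 (SE 0.29) above vehicle in weekly and 3.64 (SE 0.29) in daily libraries. By the size of the rise it was 3rd in the weekly and 1st in the daily comparison among the 14059 genes. Without weekly 4 the weekly difference was 3.91. Of 12 keratinocyte markers 4 were measured, with summed levels of 18.0 to 21.4 CPM in vehicle, 15.8 to 30.2 in weekly and 16.9 to 25.8 in daily libraries; the keratins Krt5 and Krt14 were not analysed here.

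Map3k6 was the gene of the 4 whose daily mean was not below its weekly mean. Vehicle libraries 1 to 5 held 6.09, 6.20, 5.84, 5.42 and 5.09 CPM, from 45 to 53 reads. Weekly libraries 1 to 5 held 14.5, 14.5, 26.7, 61.9 and 30.4 CPM, from 109 to 265 reads. Daily libraries 1 to 5 held 39.2, 36, 24.3, 29.9 and 34.2 CPM, from 143 to 283 reads. All 10 prednisone libraries lay above all vehicle libraries, the lowest weekly one by 2.33-fold and the lowest daily one by 3.92-fold over the highest vehicle library. Weekly libraries 1 and 2 lay below every daily library, and weekly 4 lay above every daily library. The means were 5.73 ± 0.467 CPM in vehicle, 29.6 ± 19.4 in weekly and 32.7 ± 5.77 in daily libraries (SD, n = 5 each), and the coefficient of variation was 65.5% in weekly and 17.6% in daily libraries. The log2 difference from vehicle was 2.06 (SE 0.27) in weekly and 2.40 (SE 0.27) in daily libraries, ranks 40 and 9 by the size of the rise. Without weekly 4 the weekly difference was 1.75.

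Sphk1 rested on the fewest reads of the 4 genes in vehicle muscle. Vehicle libraries 1 to 5 held 2.31, 0.819, 1.72, 2.32 and 1.92 CPM, from only 7 to 21 reads. Weekly libraries 1 to 5 held 9.48, 14.5, 32.5, 45.0 and 22.3 CPM, from 71 to 323 reads. Daily libraries 1 to 5 held 11.4, 14, 6.04, 14.4 and 14.3 CPM, from 39 to 103 reads. Every prednisone library was again above every vehicle library, weekly 1 lay among the daily libraries, weekly 2 was level with the highest of them, and weekly 3, 4 and 5 lay above them all. The means were 1.82 ± 0.616 CPM in vehicle, 24.7 ± 14.3 in weekly and 12 ± 3.57 in daily libraries (SD, n = 5 each). The log2 difference was 3.29 (SE 0.33) in weekly and 2.42 (SE 0.33) in daily libraries, ranks 9 and 7 by the size of the rise. Without weekly 4 the weekly difference was 3.03.

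Rrad rested on the most reads of the 4 genes in every group; CPM is not set per gene length, so the genes are not ordered by level here. Vehicle libraries 1 to 5 held 11.8, 14.7, 15.3, 15.7 and 14.7 CPM, from 97 to 142 reads. Weekly libraries 1 to 5 held 122, 111, 262, 302 and 146 CPM, from 841 to 2598 reads. Daily libraries 1 to 5 held 77.6, 77.8, 48.3, 67.4 and 73.6 CPM, from 312 to 573 reads. The 3 groups did not overlap: every daily library lay above every vehicle library and below every weekly library. The means were 14.5 ± 1.54 CPM in vehicle, 189 ± 87.3 in weekly and 68.9 ± 12.3 in daily libraries (SD, n = 5 each). The log2 difference was 3.55 (SE 0.22) in weekly and 2.20 (SE 0.22) in daily libraries, ranks 4 and 14 by the size of the rise. Without weekly 4 the weekly difference was 3.35.

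**Figure D1:**
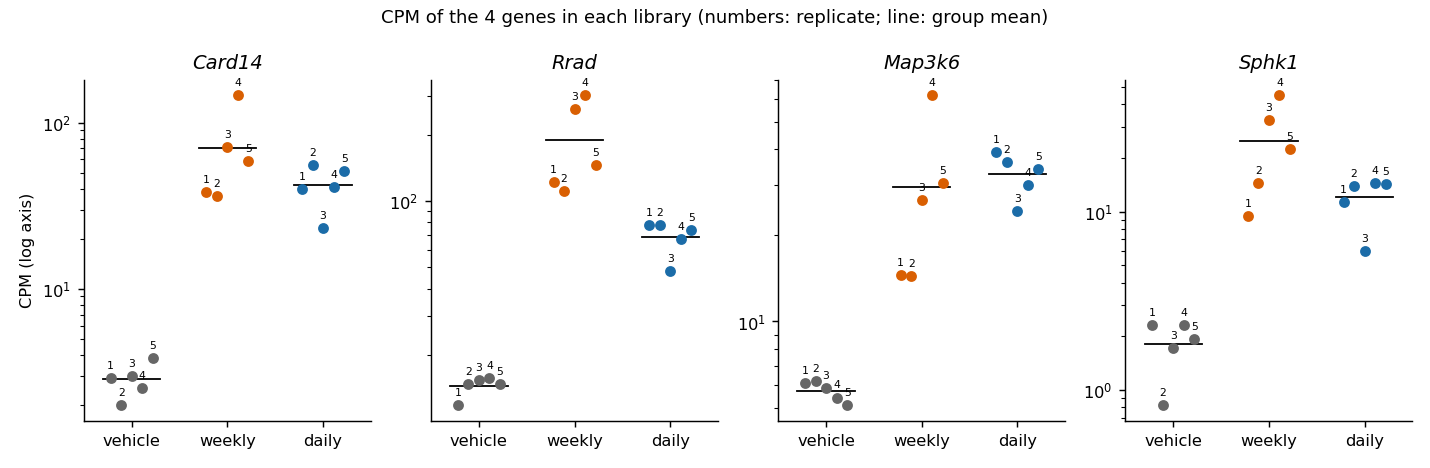
CPM of Card14, Rrad, Map3k6 and Sphk1 on a log axis, with 1 numbered point per library and a line at each group mean (n = 5 libraries per group). Vehicle points lie below all prednisone points for each gene, and the weekly points spread further than the daily points; for Rrad the daily points, 48.3 to 77.8 CPM, lie between the vehicle and the weekly ones.

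All 4 genes lay above all vehicle libraries in both regimens. This was so for 11.8% of all genes tested in weekly libraries and for 2.45% in daily libraries, while the calls of higher genes made up 6.99% and 1.76%; since the 4 genes were picked for their rise, nothing is read from their count. The ratio of the weekly to the vehicle mean was 24.6 for Card14, 13.6 for Sphk1, 13 for Rrad and 5.17 for Map3k6, and the ratio of the daily to the vehicle mean was 14.8, 6.61, 4.77 and 5.72 in the same order. The median log2 difference of all genes was 0.17 in weekly and -0.08 in daily libraries at the deposited scaling, and 0.01 and 0.00 with TMM scaling, so the 4 differences are large against either. With TMM scaling, the weekly differences were 4.05 for Card14, 3.12 for Sphk1, 3.37 for Rrad and 1.89 for Map3k6, and the daily ones were 3.73, 2.51, 2.29 and 2.49. In bulk tissue a change in the number of cells of a type and a change in RNA per cell cannot be told apart.

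At the deposited scaling the 4 genes shared their highest weekly and their lowest daily library, the pair of libraries that stood apart. How many other genes share these extremes was not counted, so this is not read as a trait of the 4 genes. Weekly 4 was the highest weekly library for all 4 genes and weekly 3 was next for Card14, Rrad and Sphk1, while daily 3 was the lowest daily library for all 4. With TMM scaling weekly 4 was still the highest for each, at 121 CPM of Card14, 251 of Rrad, 51.2 of Map3k6 and 37.2 of Sphk1. Daily 3 was then the lowest for Card14 (35.3 CPM) and Sphk1 (9.25 CPM), whereas Rrad (74.0 CPM) and Map3k6 (37.2 CPM) lay within the other daily libraries, at 66.0 to 77.3 and 29.3 to 38.8 CPM. Weekly 4 is the library with the high fibroblast and macrophage sums, and their part in the members' values was not tested; the 4 other weekly libraries, with macrophage sums of 192 to 486 CPM, also lay above all vehicle libraries for each gene. The summed level of 10 adipocyte markers was 799 to 858 CPM in vehicle, 1057 to 3506 in weekly and 456 to 879 in daily libraries. Their median log2 difference from vehicle was 1.12 in weekly and -1.27 in daily libraries. Of the 10, 6 were called higher in weekly and 5 lower in daily libraries, against 6.99% and 2.13% of all genes. With TMM scaling 3 were higher in weekly, and 1 was higher and 5 lower in daily libraries. The summed level of 9 endothelial markers was 236 to 256, 254 to 401 and 151 to 240 CPM in vehicle, weekly and daily libraries. The adipocyte sum was highest in weekly 5, at 3506 CPM, a library in which none of the 4 genes was highest, and the part of either cell type was not tested. The satellite cell markers, 4 of 5 measured, summed to 47.3 to 56.3 CPM in vehicle, 54.3 to 78.4 in weekly and 36.7 to 71.9 in daily libraries. Of the smooth muscle markers 4 of 5 were measured and summed to 247 to 264 CPM in vehicle, 227 to 267 in weekly and 131 to 204 in daily libraries. The neutrophil list was represented only by Csf3r (1 of 7), at 3.66 to 5.03, 1.20 to 8.99 and 1.24 to 4.99 CPM, and the 7 lymphocyte markers were not analysed here.

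**Figure D2:**
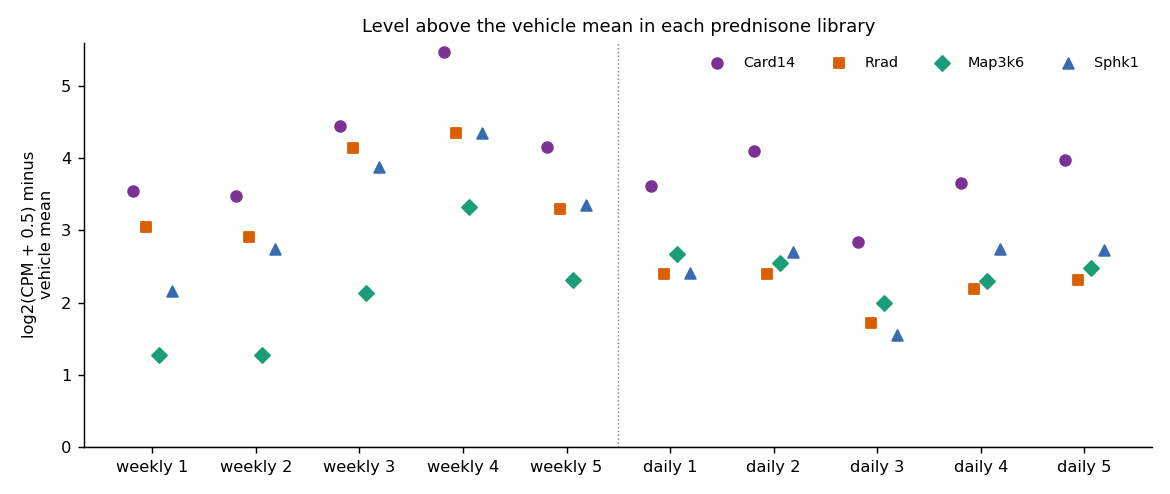
Level of each gene in each prednisone library on the log2(CPM + 0.5) scale, minus the mean of the 5 vehicle libraries. Card14 is the highest point in all 10 libraries, Map3k6 is the lowest of the 4 in every weekly library, and in every daily library Map3k6 lies above Rrad.

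The comparison of daily with weekly libraries asks whether the regimens differ in these genes. It was not named in the choice of the genes, but it uses the same prednisone libraries. A choice for a high level in 1 regimen can tilt it, and the choice did not state which regimen was used. The p-values and intervals below do not allow for this. At the deposited scaling, daily libraries were lower than weekly ones for 8.24% of all genes tested and higher for 0.484%, and the median log2 difference of all genes was -0.24; with TMM scaling the shares were 2.64% and 2.08% and the median was 0.01. Rrad was the 1 gene of the 4 that passed the test, and it was lower in daily libraries. Its log2 difference was -1.35 (SE 0.22, 95% interval -1.81 to -0.88), with an adjusted p of 0.000935 by limma with Benjamini-Hochberg adjustment over all genes. The standard errors and intervals here and below use a spread shared by all 3 groups. Vehicle libraries varied least, with a log2 SD of 0.16 for Rrad, against 0.66 in weekly and 0.28 in daily libraries. The intervals can thus be narrower than the weekly and daily libraries alone would give. All 5 daily libraries were below all 5 weekly libraries, a separation seen for 6.98% of genes, and the exact two-sided permutation p was 0.00794, which is the smallest this design allows. With TMM scaling the difference was -1.08 (limma adjusted p = 0.00342), and the daily libraries, 66.0 to 77.3 CPM, stayed below the weekly ones, 106 to 251 CPM, as they did for 2.53% of genes at that scaling. The p stayed under 0.05 in 26 of 26 alternatives, unadjusted in the permutation tests, with differences of -1.51 to -1.02. Several of these, such as leaving out a vehicle library, leave the difference as it was. With only the weekly and daily libraries fitted, the limma adjusted p was 0.00891.

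Sphk1 had a daily minus weekly difference of -0.87 (SE 0.33, 95% interval -1.56 to -0.19), which did not pass the threshold (limma adjusted p = 0.0914; exact permutation p = 0.0873). Its interval leaves out 0 but rests on the shared spread, which includes the vehicle libraries. The log2 SD of Sphk1 was 0.45 in vehicle, 0.87 in weekly and 0.51 in daily libraries. The Sphk1 difference passed only without weekly 1, the weekly library with the lowest Sphk1 level (-1.16, limma adjusted p = 0.0204), and with TMM scaling it was -0.62 (limma adjusted p = 0.268). Card14 differed by -0.59 (SE 0.29, 95% interval -1.19 to 0.02; limma adjusted p = 0.19; exact permutation p = 0.222). It was called in 0 of 26 alternatives, with an adjusted p of 0.0837 to 0.838 in the fits and an unadjusted exact permutation p of 0.437 with TMM scaling, where the difference was -0.32. For Map3k6 the difference was 0.34 (SE 0.27, 95% interval -0.23 to 0.90; limma adjusted p = 0.427; exact permutation p = 0.397), and with TMM scaling it was 0.60 (limma adjusted p = 0.186). Without weekly 4, daily libraries were higher in Map3k6 by 0.65 (limma adjusted p = 0.0138), and without both weekly 4 and daily 3 by 0.75 (limma adjusted p = 0.00871). Without both libraries the Rrad difference was -1.02 (limma adjusted p = 0.000458), while Sphk1 (-0.39, limma adjusted p = 0.37) and Card14 (-0.07, limma adjusted p = 0.838) did not pass. The intervals of Card14, Map3k6 and Sphk1 are wide, and a missed threshold does not show that the regimens act alike on them.

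**Figure D3:**
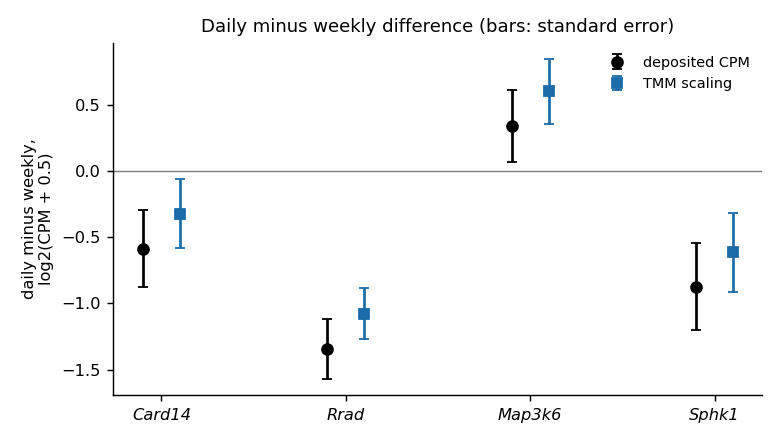
Daily minus weekly difference of each gene in log2(CPM + 0.5), at the deposited scaling (circles) and with TMM scaling (squares), with standard errors as bars (5 libraries per group). Rrad lies furthest below 0, at -1.35 and -1.08, and Map3k6 is the only gene of the 4 above 0, at 0.34 and 0.60.

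Ratios of 2 genes within a library do not depend on how the library was scaled, and a ratio is compared here only across libraries, not as a level of one gene against another. The ratio of Rrad to Map3k6 was 1.94 to 2.90 in vehicle libraries, 4.80 to 9.80 in weekly libraries and 1.98 to 2.25 in daily libraries. Weekly libraries thus lay above both other groups, and every daily library lay within the vehicle range. This is a description, and the separation is common for Rrad, whose ratio to another gene was higher in all weekly than in all daily libraries for 61.7% of 14058 genes. For Map3k6, the ratio to another gene was lower in all weekly than in all daily libraries for 7.15% of genes. The ratio of Card14 to Map3k6 was 0.321 to 0.756 in vehicle, 1.92 to 2.68 in weekly and 0.949 to 1.55 in daily libraries, so the 3 groups did not overlap. The ratio of Map3k6 to Sphk1 was 2.33 to 7.57 in vehicle, 0.820 to 1.54 in weekly and 2.07 to 4.03 in daily libraries, so weekly libraries lay below all others. How many genes have a ratio to Card14 or to Sphk1 that separates the groups was not counted. Nor was this counted for the separation from vehicle in any pair. These separations are thus not read as traits of the pairs. The ratio of Card14 to Rrad went from 0.135 to 0.262 in vehicle to 0.274 to 0.483 in weekly and 0.478 to 0.717 in daily libraries, where the regimens overlapped by 1 library each. The ratios to Sphk1 of Rrad (6.55 to 12.9 in weekly and 4.67 to 8 in daily libraries) and of Card14 (2.20 to 4.03 and 2.86 to 3.99) overlapped between the regimens.

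**Figure D4:**
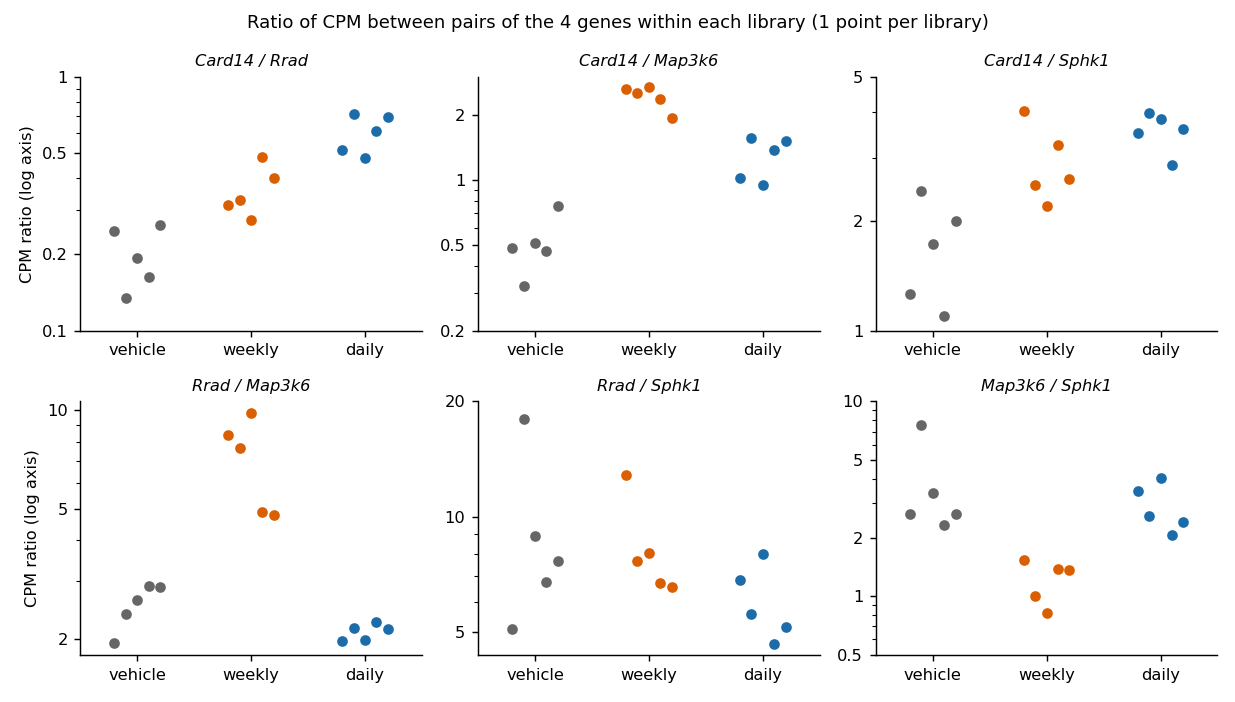
Ratio of CPM between pairs of the 4 genes within each library, on log axes, with 1 point per library and 5 libraries per group. The ratio of Rrad to Map3k6 is 4.80 to 9.80 in weekly libraries and below 3 in all others.

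Genes in the same routes were counted in 4 lists to set the 4 genes beside their partners. In the NF-kappaB route around Card14, 26 of 26 listed genes were tested. In weekly libraries 2 rose and 0 fell, with a median log2 difference of 0.22 against 0.17 for all genes; over all genes 6.99% rose and 1.07% fell (5.73% and 4.18% with TMM scaling). They were Nfkbia, the inhibitor that holds NF-kappaB in the cytoplasm (0.73, limma adjusted p = 0.0484), and Rel, a subunit of the factor (0.64, limma adjusted p = 0.0458), and neither call was kept with TMM scaling. Nfkbia reached 56.5 CPM in weekly 4 and 15.7 to 26.3 CPM in weekly 1, 2, 3 and 5. In daily libraries 1 gene rose and 0 fell, with a median of -0.09 against -0.08, where 1.76% of all genes rose and 2.13% fell (5.61% and 3.47% with TMM scaling). In the list, 3 rose and 2 fell with TMM scaling, as with edgeR and DESeq2. The gene that rose in daily libraries at the deposited scaling was Nfkbia again, with 16.2, 16.7, 14.1, 15.4 and 15.1 CPM in vehicle libraries 1 to 5 and 33.1, 32.5, 24.5, 36.6 and 33.7 CPM in daily libraries 1 to 5 (1.01, SE 0.23, limma adjusted p = 0.0111). Daily against weekly, 0 rose and 3 fell, where 0.484% and 8.24% of all genes did (2.08% and 2.64% with TMM scaling). They were the subunits Relb (-0.68) and Rela (-0.61) and the inhibitor Tnfaip3 (-0.67), and 0 of these calls held with TMM scaling. Card14's relatives Card9 (0.28 in weekly and 0.36 in daily libraries) and Card10 (0.10 and -0.01) were not called against vehicle.

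In the stress kinase route around Map3k6, 30 of 32 genes were tested, and 4 rose and 0 fell in weekly libraries (median 0.21), against 6.99% and 1.07% of all genes; with TMM scaling 3 rose and 1 fell. Map3k8, a kinase that acts upstream of ERK, was the clearest of them. It held 6.45, 7.49, 5.04, 7.85 and 4.63 CPM in vehicle, 12.7, 13.9, 21.1, 16.5 and 20.0 CPM in weekly and 18.6, 17.3, 8.83, 15.9 and 15.2 CPM in daily libraries 1 to 5. All 10 prednisone libraries were above all vehicle libraries, as for 11.8% of all genes in weekly and 2.45% in daily libraries, and the difference was 1.35 (SE 0.21, limma adjusted p = 0.000313) in weekly and 1.19 (SE 0.21, limma adjusted p = 0.00136) in daily libraries. The others were Map3k5, the partner kinase ASK1 (0.55, limma adjusted p = 0.0281), Mapk14, which is p38 alpha (0.41, limma adjusted p = 0.0418), and Txn1, the thioredoxin that binds ASK1 (0.70, limma adjusted p = 0.0422). The Txn1 call was lost with TMM scaling (limma adjusted p = 0.060). Map3k5 went from 31.3 ± 1.19 CPM in vehicle to 46.2 ± 5.46 in weekly and 36.7 ± 7.60 in daily libraries (SD, n = 5 each), the last of which did not pass (0.20, limma adjusted p = 0.546). In daily libraries Map3k8 was the 1 gene that rose and 0 fell (median 0.00), whereas 3 rose and 1 fell with TMM scaling or edgeR and 5 rose and 1 fell with DESeq2. Over all genes 1.76% rose and 2.13% fell in daily libraries, and 5.61% and 3.47% did with TMM scaling. Daily against weekly, 0.484% of all genes rose and 8.24% fell, and 2.08% and 2.64% did with TMM scaling. In the list 0 rose and 1 fell, the p38 target Mapkapk2 (-0.52, limma adjusted p = 0.035). Its difference was -0.25 and not called with TMM scaling. With TMM scaling the direction of the calls turned, to 1 that rose and 0 that fell, as with edgeR and DESeq2; with TMM scaling the gene was the phosphatase Dusp1, which switches off p38 and JNK (0.64, limma adjusted p = 0.00452; 0.37, limma adjusted p = 0.19 at the deposited scaling). Map3k15, the other ASK relative, held 3.19, 3.15 and 3.66 CPM in the 3 groups and was not called.

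In the sphingolipid route around Sphk1, 42 of 45 genes were tested. In weekly libraries 4 rose and 1 fell, with a median of 0.28, against 6.99% and 1.07% of all genes; with TMM scaling 3 rose and 1 fell. Sgms2, a sphingomyelin synthase, held 8.52, 8.55, 7.67, 8.63 and 10.1 CPM in vehicle and 12, 20.9, 32.2, 20.1 and 26.7 CPM in weekly libraries 1 to 5 (1.25, SE 0.21, limma adjusted p = 0.000715). Ormdl3, an inhibitor of the enzyme that starts sphingolipid synthesis, held 24.3 to 27.3 CPM in vehicle and 32.7 to 77.4 CPM in weekly libraries (0.85, SE 0.19, limma adjusted p = 0.0074). Both genes lay above the vehicle range in all 5 weekly libraries, as did 11.8% of all genes. Sptlc2, a subunit of that enzyme (0.91, limma adjusted p = 0.0202), and the ceramidase Acer2 (0.89, limma adjusted p = 0.0458) also rose, Acer2 not with TMM scaling (limma adjusted p = 0.114). Smpd3, a neutral sphingomyelinase, fell. It held 4.87, 3.75, 6.41, 4.54 and 5.31 CPM in vehicle, 2.00, 1.09, 3.42, 2.88 and 2.45 CPM in weekly and 0.969, 2.85, 1.24, 1.05 and 2.36 CPM in daily libraries 1 to 5. Every prednisone library was below every vehicle library, as for 1.66% of all genes in weekly and 8.82% in daily libraries, with differences of -0.98 in weekly (limma adjusted p = 0.0296) and -1.39 in daily libraries (limma adjusted p = 0.00387), and Smpd3 was the 1 gene of the list called in daily libraries (0 rose, median -0.07). With TMM scaling or edgeR 3 rose and 1 fell in daily libraries, and with DESeq2 3 rose and 2 fell. Over all genes 1.76% rose and 2.13% fell in daily libraries, and 5.61% and 3.47% did with TMM scaling. Daily against weekly, 0 rose and 4 fell (median -0.32), where 0.484% and 8.24% of all genes did. They were Ormdl3 (-1.17, limma adjusted p = 0.000728), Sgms2 (-0.81, limma adjusted p = 0.0225), the acid sphingomyelinase Smpd1 (-0.63) and the ceramide-forming desaturase Degs1 (-0.55). With TMM scaling 2 of the 4 calls remained, Ormdl3 and Smpd1. The isoenzyme Sphk2 held 14.9 ± 1.55, 17.4 ± 3.82 and 14.2 ± 2.40 CPM in vehicle, weekly and daily libraries (SD, n = 5 each) and was not called, with log2 differences of 0.20 and -0.08.

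In the calcium channel and excitation-contraction list around Rrad, 25 of 27 genes were tested, and 1 rose and 0 fell in either regimen (medians -0.02 in weekly and -0.13 in daily libraries). Over all genes 6.99% rose and 1.07% fell in weekly and 1.76% and 2.13% in daily libraries. The all-gene shares with TMM scaling were 5.73% and 4.18% in weekly and 5.61% and 3.47% in daily libraries. With TMM scaling the weekly calls turned to 0 that rose and 2 that fell, the channel subunit Cacng1 (-0.53, limma adjusted p = 0.0105) and the junction protein Jph1 (-0.53, limma adjusted p = 0.0411), while edgeR gave 1 and 1 and DESeq2 1 and 2. The gene that rose was Cacna1d, the pore of an L-type calcium channel other than the main one of muscle. It held 4.02, 5.74, 4.35, 3.43 and 5.20 CPM in vehicle, 3.74, 6.88, 10.7, 21.6 and 11.6 CPM in weekly and 14.8, 12.8, 7.74, 15.1 and 14.8 CPM in daily libraries 1 to 5. All daily libraries were above all vehicle libraries, as for 2.45% of all genes (1.41, SE 0.31, limma adjusted p = 0.00871). Weekly 1 lay among the vehicle libraries, and the weekly difference was 0.99 (SE 0.31, limma adjusted p = 0.0487, not called with TMM scaling, limma adjusted p = 0.0668). Daily against weekly, 0.484% of all genes rose and 8.24% fell at the deposited scaling. In the list 0 genes were called by limma at either scaling, by edgeR or by DESeq2. Without both libraries that stand apart, 1 gene of the list rose. Genes at an unadjusted p under 0.05 numbered 0 by limma at the deposited scaling, 3 by limma with TMM scaling, 1 by edgeR and 1 by DESeq2. Cacna1s, the main channel pore of skeletal muscle, held 620 ± 9.22, 620 ± 85.8 and 541 ± 115 CPM and its partner beta subunit Cacnb1 136 ± 3.68, 134 ± 26 and 108 ± 21.2 CPM in vehicle, weekly and daily libraries (SD, n = 5 each), and neither was called. The RGK relatives Gem (0.32 and -0.01) and Rem1 (-0.07 and -0.49) were not called either.

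**Figure D5:**
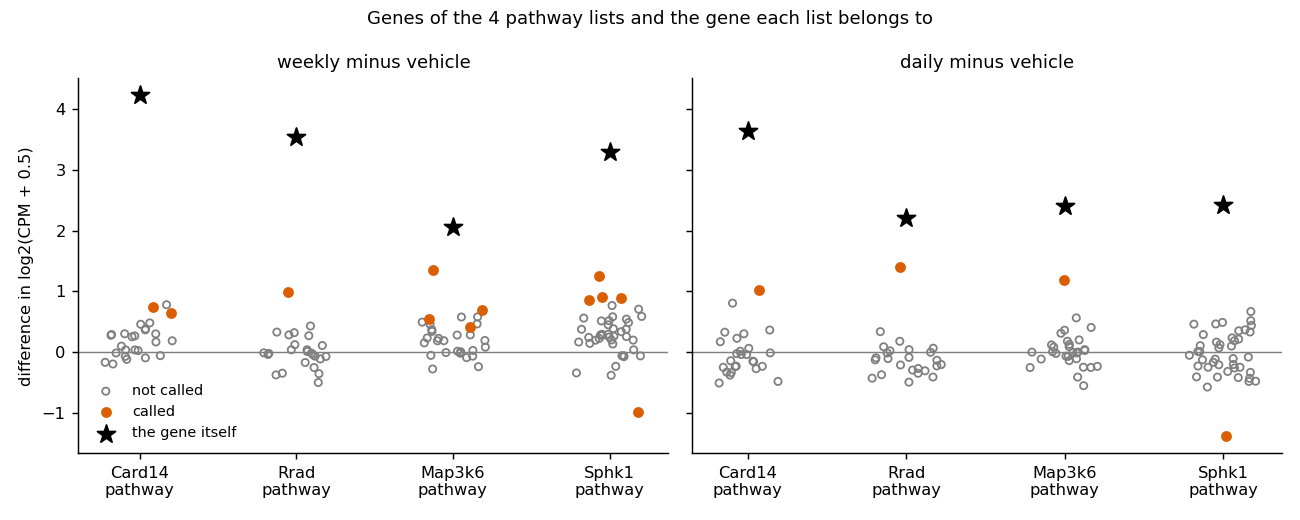
Difference from vehicle in log2(CPM + 0.5) of each gene in the 4 route lists (circles, filled where the adjusted p was under 0.05) and of the gene each list belongs to (stars), in weekly (left) and daily (right) libraries. The listed genes lie within about 1.5 of 0 in both panels, and the stars lie at 2.06 or more.

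Genes with the most similar pattern were found by the root mean square difference in log2(CPM + 0.5) over the 15 libraries, after centring each gene on its vehicle mean. The search left out the 4 genes themselves and predicted genes with Gm or Rik names. Socs3, a feedback inhibitor of cytokine signalling, was closest to Rrad (0.276, where the median gene was at 2.38), to Sphk1 (0.385, median 2.37) and to Card14 (0.970, median 3.21). It held 10.4 ± 1.79 CPM in vehicle, 105 ± 41.4 in weekly and 58.2 ± 12.7 in daily libraries (SD, n = 5 each). Next to Rrad came the protease gene Adamts4 (0.504) and the metallothionein Mt1 (0.511), next to Sphk1 came Mt1 (0.462) and Mt2 (0.464), and next to Card14 came Mt2 (1.19) and Mt1 (1.24). Metallothionein genes are similar in sequence, and reads may be shared between them. Other genes were closest to Map3k6: Gadd45g, a stress-induced activator of MAP kinase signalling (0.333, median 1.86), and the transcription regulators Nfil3 (0.353) and Maff (0.377). Nfil3 held 10.2 ± 0.398, 40.8 ± 12 and 44.9 ± 9.47 CPM in vehicle, weekly and daily libraries, so like Map3k6 its daily mean was not below its weekly mean. Gadd45g held 7.44 ± 1.5, 46.8 ± 38.2 and 37.1 ± 7.12 CPM in the same groups, and its weekly mean rests on weekly 4 at 114 CPM, since weekly 1, 2, 3 and 5 held 23.9 to 37.0 CPM. The order of these genes was the same with TMM scaling. As the 4 genes were picked for a strong rise over vehicle, genes that changed little must lie far from them, and other strong risers nearer. The medians thus only give the scale of the measure and are no evidence of likeness. Among the 4 genes, Rrad and Sphk1 were closest (0.410, with 1 other gene closer to Rrad), and Card14 and Map3k6 were furthest apart (1.46). Card14 lay nearer to Sphk1 (0.922) and to Rrad (0.957) than to Socs3.

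Genes beside the 4 on the chromosome were examined because overlaps and neighbours could share reads. Sgsh, the lysosomal sulfamidase gene that overlaps Card14, held 9.89 ± 0.802 CPM in vehicle, 17.9 ± 12 in weekly and 9.59 ± 3.09 in daily libraries (SD, n = 5 each), with 38.8 CPM in weekly 4. It was not called (0.63, limma adjusted p = 0.171, and -0.10, limma adjusted p = 0.899), whereas Card14 was above vehicle in every library of both regimens. Eif4a3, 7679 bases from Card14, and Slc26a11, 10182 bases from it, were not called against vehicle (0.57 and -0.22, and -0.03 and -0.34, in weekly and daily libraries). Ciao2b, 8511 bases from Rrad, and Prpsap1 and Ube2o, 36723 and 1066 bases from Sphk1, were not called either, with weekly differences of 0.33, 0.32 and 0.25. Sytl1, a vesicle trafficking gene on the opposite strand 161 bases beyond Map3k6, was the 1 neighbour called higher in both regimens. It held 0.486 ± 0.426 CPM in vehicle, 1.39 ± 0.266 in weekly and 1.57 ± 0.257 in daily libraries, values near that of 3 reads, with log2 differences of 1.05 (limma adjusted p = 0.0242) and 1.19 (limma adjusted p = 0.0164). The weekly call was lost without vehicle 2 or 4, without weekly 3 or 5, with edgeR and when those groups were fitted alone, the daily call without vehicle 2 or 4, and both when the vehicle libraries were averaged to 1 sample.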

How the data were processed

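Quadriceps RNA of 15 libraries (5 per group) was prepared with a stranded total RNA kit and sequenced as read pairs, per the labels' protocols. The submitters' processing notes name TopHat2 2.1.0 as the aligner, mm10 (GRCm38) as the genome, HTSeq as the counter and edgeR. The authors deposited 1 table whose values the labels call RPKM, but they are CPM: 222090 of 222090 deposited values are whole multiples of 1 read (tolerance 0.01 reads), with a step that does not depend on the gene. The planned log-scale test was kept, and count tests on the recovered reads were run as alternatives. Of 14806 features, 534 without a gene name were left out (at most 0.447% of a library), 21 symbols had become dates, and 9 columns were empty.

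Genes with at least 1 CPM in at least 5 libraries (14059) entered limma 3.58.1 (R 4.3.3) on the log2(CPM + 0.5) scale in a single fit over all groups, with a mean-variance trend and Benjamini-Hochberg adjustment; a call needs an adjusted p under 0.05. Alternatives were TMM scaling and quasi-likelihood tests (edgeR 4.0.16), DESeq2 1.42.0, pseudocounts of 0.1 and 1, no filter, fits of a pair of groups, the replicate block, and libraries left out. Floors of 3 reads cover counting error only.

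The genes and lists were chosen with earlier results of these data known. Besides the 4 genes, those named are their relatives (1 is not reported here), up to 5 called genes per list by smallest p against vehicle, the 3 genes closest to each in pattern, and the nearest genes; genes called in daily against weekly or only with TMM scaling, and Cacna1s and Cacnb1, were named after their values were seen. Positions are from GENCODE M21, promoters from RefSeq. The scripts were tested on simulated data.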

Additional observations from a re-analysis of the deposited data

Results flagged for a closer look

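In 17 of 111 sets of 5 libraries (37 genes in 3 groups), the highest or lowest library lay further from the rest than Dixon's 95% limit for 5 values (0.71 of the range); chance gives about 1 in 20, and genes in 1 library are not independent. Among the 4 genes chosen, Rrad was low in vehicle 1, at 11.81 CPM against 14.69 to 15.71 in the other vehicle libraries. Weekly 4 gave 8 of the 17, all of them high: Nfkbia at 56.46, Txn1 at 85.95, Sptlc2 at 76.96, Gadd45g at 114.4, Maff at 26.97, Sgsh at 38.84, Eif4a3 at 47.11 and Prpsap1 at 17.62 CPM. Daily 3 gave 3, all low: Card9 at 2.788, Map3k5 at 23.39 and Txn1 at 19.83 CPM. The others were Acer2 in weekly 5, high at 27.09 CPM, Mapk14 in vehicle 3, high at 81.97 CPM, and 3 low vehicle values, namely Rel in vehicle 1 at 4.139, Gadd45g in vehicle 2 at 4.799 and Fam96b (the older symbol of Ciao2b) in vehicle 4 at 6.194 CPM.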

How the results depend on the processing

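The weekly and daily differences of the 4 genes from vehicle moved by less than the spread between replicates in 22 of 22 alternatives each. Many of these alternatives could not have moved them further. Leaving out a library of the other regimen, or averaging the vehicle libraries, leaves a difference as it was. Leaving out a single library of the compared groups cannot move it by the spread of the regimen's libraries. The count is therefore weak evidence that the differences are stable. Daily against weekly, the Rrad call was kept in all 26 alternatives, several of which leave its difference as it was. With single libraries left out, its difference was -1.51 to -1.15 and that of Card14 -0.77 to -0.27. Map3k6 passed without weekly 4 (0.65) and without weekly 4 and daily 3 together (0.75), with a range of 0.14 to 0.65 when 1 library was left out, and Sphk1 passed without weekly 1 (range -1.16 to -0.61). Numbers of genes called over the whole table moved more, and the causes were not tested. Weekly against vehicle, 1133 genes were called, 1904 with DESeq2, 644 to 2253 without 1 library (over 1.5 times from 1133 for each vehicle library, weekly 3, weekly 5 or daily 3) and 3329 without both libraries that stand apart. Daily against vehicle, 547 were called, 1277 with TMM scaling, 1332 with edgeR, 1596 with DESeq2, 1685 when those 2 groups were fitted alone, 348 to 1475 without 1 library (vehicle 2 to 5, weekly 4 or daily 3) and 2424 without both. Daily against weekly, 1227 were called, 663 with TMM scaling, 747 with edgeR, 232 when fitted alone, 520 to 1882 without 1 library (weekly 3, 4 or 5, daily 3 or 5) and 2039 without both. With TMM scaling, higher and lower calls went from 983 and 150 to 805 and 588 (weekly), from 248 and 299 to 789 and 488 (daily) and from 68 and 1159 to 292 and 371 (daily against weekly). The vehicle libraries were more alike than the others; with them averaged to 1 sample, an alternative chosen after seeing the data, 8 and 3 genes were called against vehicle, and none in the 4 lists. The lists of Card14, Rrad, Map3k6 and Sphk1 held 26, 25, 30 and 42 tested genes. Without both libraries that stand apart, 5 and 0, 4 and 1, 10 and 1, and 13 and 1 of these rose and fell in weekly libraries. In daily libraries 5 and 3, 2 and 1, 7 and 1, and 6 and 3 did. Over all 14059 genes in that setting, 2827 rose and 502 fell in weekly and 1539 and 885 in daily libraries. Over all alternatives the calls in these lists numbered 0 to 5, 0 to 5, 0 to 11 and 0 to 14 in weekly, 0 to 8, 0 to 3, 0 to 8 and 0 to 9 in daily libraries, and 0 to 6, 0 to 1, 1 to 3 and 2 to 6 in daily against weekly. Of the calls named in the lists, those of Map3k8, Sgms2 and Ormdl3 in weekly and of Nfkbia, Cacna1d, Map3k8 and Smpd3 in daily libraries held in 24 of 25 alternatives; in weekly libraries Nfkbia held in 8, Acer2 in 9, Cacna1d in 10, Rel and Txn1 in 11, Mapk14 in 13, Map3k5 in 17, Smpd3 in 18 and Sptlc2 in 23.

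Libraries with the same replicate number deviated from their group means with correlations of -0.03 to 0.15. The largest were daily 1 with weekly 1 (0.146) and daily 4 with weekly 4 (0.0859). Vehicle libraries varied too little for this check to settle if the numbers pair the samples. The main fit does not pair them. With the replicate block, daily minus weekly was -0.59 for Card14, -1.35 for Rrad, 0.34 for Map3k6 and -0.87 for Sphk1, with the same calls, and 1096, 494 and 985 genes were called in the 3 comparisons in the order above. Sphk1 in vehicle libraries rests on 7 to 21 reads, which limits the precision of its fold.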
